A study of Mus musculus with 6 samples.

Results

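The genes described here are 35 genes of endothelial and endocardial identity, measured by RNA-seq in whole mouse hearts at embryonic day 9.5. They are genes for junction proteins, surface receptors, secreted factors and transcription regulators that are used to recognise the inner lining of vessels and heart, with the VEGF, Tie, Notch, SoxF and flow pathways left out. They were found by matching each symbol to its Ensembl gene, and each of the 35 symbols matched exactly 1 of the 30323 gene IDs in the counts. The control group is 3 libraries with the genotype C57BL/6 ctrl. The other 3 have the genotype CDC-42 KO and are called MCKO, for a myocardial knockout of Cdc42, which encodes a small GTPase. Each group holds 3 hearts, and the labels name the tissue only as heart. No source used here names the promoter that drives Cre, the genetic background of the knockout, or the litter or heart behind each library. All p-values thus reflect the spread between these 6 libraries alone, which may be technical.

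Endothelium is the cell layer that lines blood vessels, and endocardium is the specialised endothelium that lines the chambers of the heart, facing the myocardium across the cardiac jelly. Its identity rests on ETS-family transcription factors such as Erg, Fli1 and Etv2, working with Tal1, Lmo2 and Gata2, which also act in blood progenitors. These factors act on genes for adhesion molecules such as VE-cadherin and PECAM-1. At this stage the endocardium signals to the muscle for trabeculation and gives rise to the cells of the cardiac cushions. The series' text calls the knockout myocardial.

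Library totals ranged from 19256840 to 32169289 estimated counts in control and from 23883877 to 34246477 in MCKO, and levels are given as CPM, counts scaled by those totals. Cdc42, the targeted gene, was at 399, 377 and 424 CPM in control and at 248, 241 and 238.5 CPM in MCKO, a log2 fold change of -0.66 (SE 0.047). The groups did not overlap, and the adjusted p was 2.93e-06. Here and below, adjusted p-values come from edgeR's quasi-likelihood test with adjustment over 14697 tested genes, a log2 fold change is MCKO over control, and a gene rose or fell when its adjusted p was under 0.05. As a check of the labelled tissue, the summed level of 11 cardiomyocyte marker genes was 36000 to 39720 CPM in control and 42960 to 44600 CPM in MCKO. Of the 11, 5 rose, none fell and 6 did not pass the test. Myh7 rose most, from a mean of 6332 CPM in control to 10130 CPM in MCKO. Endothelial transcripts were present in all 6 libraries, with Cdh5 at 178 CPM or more and Eng at 172 CPM or more in each.

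Most of the endothelial and endocardial genes were higher in MCKO. Of the 35, all of which passed the filter on low counts, 26 rose, 3 fell and 6 did not pass the test, while 17 were higher and 8 lower when scaled to other endothelial genes, as given below. The first counts are 74.3% higher and 8.57% lower, where 29.3% of all tested genes were higher and 29.1% were lower, and 58.4% changed in either direction. The median log2 fold change of the 35 was 0.54, against 0.00057 over all tested genes. The gene at that median is Rasip1, whose own value depends on GC content as given below. At least 2-fold higher were 8 of the 35, or 22.9%, where 7.03% of all tested genes were: Cd93, Stab1, Hhex, Robo4, Cldn5, Myct1, Stab2 and Esm1. A further 10 rose by a log2 fold change from 0.5 to under 1, and 8 rose by less than 0.5. None of the 3 that fell reached 2-fold. Among the 35, 2 genes (Esm1 and Stab2) reached the filter's level of 0.380 CPM in no control library and were kept through MCKO. Both are counted in the 26 that rose and in the 8 that rose at least 2-fold. Without them 24 of 33 rose, or 72.7%, 3 fell, and the median log2 fold change was 0.39. The summed level of the 35 genes was 1906 to 1961 CPM in control and 2512 to 2538 CPM in MCKO. In bulk tissue, more cells of a type and more RNA per cell cannot be told apart.

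**Figure D1:**
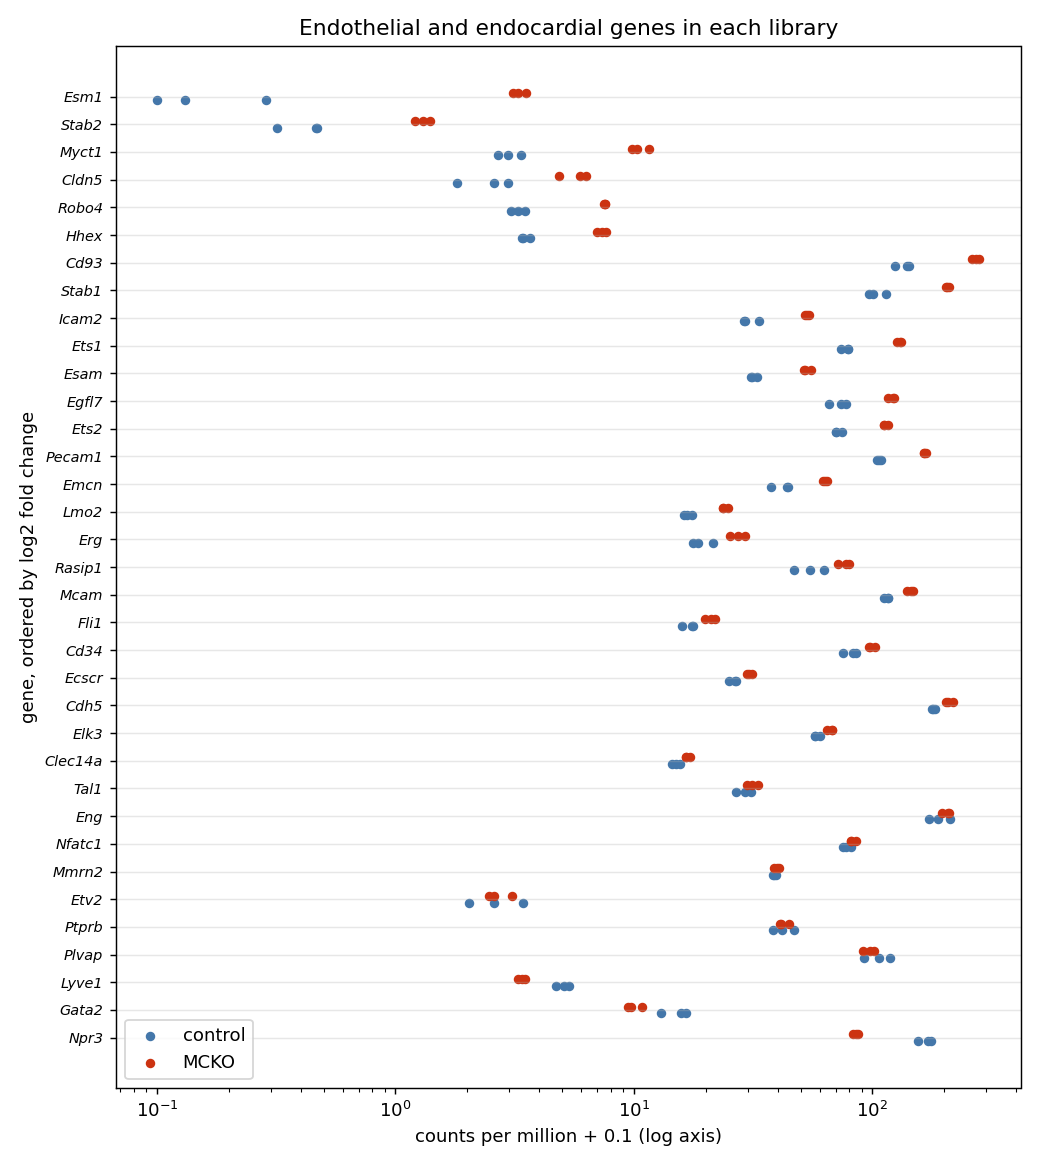
Level of each of the 35 genes in each library, as CPM + 0.1 on a log axis, with genes ordered by log2 fold change (blue, 3 control libraries; red, 3 MCKO libraries; 1 point per library). The groups do not overlap for 29 genes, of which 26 are higher and 3 (Npr3, Gata2, Lyve1) are lower in MCKO; they overlap for Tal1, Eng, Mmrn2, Etv2, Ptprb and Plvap.

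The 2 groups of libraries did not overlap in CPM for 29 of the 35 genes, and the share over all tested genes was 65.5%. The plot of levels by library shows this gene by gene. The 6 genes with overlapping groups are also the 6 that did not pass the test.

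Of 8 genes for proteins of cell junctions and adhesion, 7 rose. Pecam1, the adhesion molecule known as CD31 (chromosome 11, 106654217 to 106750628, minus strand, on GRCm38), was at 104, 107 and 108.5 CPM in control and at 168, 164 and 165 CPM in MCKO. Every MCKO library was above every control library, by a log2 fold change of 0.70 (SE 0.039, edgeR adjusted p = 6.63e-07). Esam, an adhesion molecule of endothelial tight junctions, was at 31.2, 32.6 and 30.8 CPM in control and 54.9, 52.2 and 51.6 CPM in MCKO. Its groups did not overlap either, at a log2 fold change of 0.81 (SE 0.052, edgeR adjusted p = 1.57e-06). Icam2, an adhesion molecule that endothelium makes constitutively, was at 28.9, 33.4 and 29.1 CPM in control and at 52.2, 53.9 and 53.1 CPM in MCKO. The highest control library stayed well under the lowest MCKO library, with a log2 fold change of 0.87 (SE 0.065, edgeR adjusted p = 4.32e-06).

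The other junction genes rose by different amounts. Cldn5, the claudin of endothelial tight junctions, had the largest log2 fold change of the 8, at 1.33 (SE 0.20), from a low level of 1.71 to 2.86 CPM in control. Mcam, an adhesion molecule of endothelium and smooth muscle, rose by 0.39 (SE 0.042). Cdh5, the gene of VE-cadherin and the core of the endothelial adherens junction, went only from 178 to 183 CPM in control up to 203 to 218 CPM in MCKO, a log2 fold change of 0.28 (SE 0.041). Ptprb, a receptor phosphatase that acts on VE-cadherin, was the one junction gene that did not pass the test, with groups that overlapped and a log2 fold change of 0.05 (SE 0.073). The ratio of Pecam1 to Cdh5 within a library was 0.585, 0.581 and 0.604 in control and 0.810, 0.750 and 0.814 in MCKO. An exact two-sided permutation test gave p = 0.1, the smallest that 3 libraries against 3 can give. The ratios here and below were not planned, and this test cannot pass 0.05. They are descriptions of these libraries, and no conclusion is drawn from their p.

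Rasip1, a Ras-interacting protein needed for vessel lumens to form, was at 54.7, 62.8 and 46.9 CPM in control and 71.5, 77.7 and 79.5 CPM in MCKO. Its groups did not overlap, and the change was 0.54 on the log2 scale (SE 0.10, edgeR adjusted p = 0.00237). The control libraries differed from each other for it by a wider margin than for Cdh5 or Pecam1. Rasip1 has the highest transcript GC content of the 35, 63.6%, where the lowest is 40.7% and the median over tested genes is 49.8%. Between control libraries 2 and 3 the log2 ratio rose with GC content, with Spearman's rho of 0.57 across 14600 tested genes and 0.64 across the 35, as a description over genes within 1 pair of libraries. With a correction for GC, added after these values were seen, the log2 fold change of Rasip1 was 0.10 (edgeR adjusted p = 0.0562) and the call was lost. Its exons also overlap those of 1 gene on the same strand, Izumo1, and of others on the opposite strand. Izumo1 averaged 0.487 CPM in control and 0.634 CPM in MCKO.

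Nfatc1 and Npr3 are the genes of the 35 that were grouped here as endocardial. Endocardium is itself an endothelium, so others of the 35, such as Emcn, may be expressed there too. This pair thus does not stand for endocardial genes as a class. Nfatc1 and Npr3 went opposite ways by this scaling, though Nfatc1 is lower when scaled to other endothelial genes, as given below. Npr3 encodes the clearance receptor for natriuretic peptides and lies on chromosome 15, 11839896 to 11907287, minus strand, on GRCm38. It was at 172, 155 and 176.5 CPM in control and at 87.0, 85.2 and 82.8 CPM in MCKO. Every MCKO library lay below every control library by a wide margin, at a log2 fold change of -0.92 (SE 0.053, edgeR adjusted p = 8.01e-07). It was the largest fall among the 35. Nfatc1, a transcription factor of endocardium that acts in valve formation, was at 77.5, 80.9 and 75.4 CPM in control and 81.3, 84.9 and 81.3 CPM in MCKO. The groups were only just apart, at a log2 fold change of 0.14 (SE 0.047, edgeR adjusted p = 0.0239), and the call was lost on 4 of the alternatives tried. Among them were scaling by library totals (edgeR adjusted p = 0.153) and leaving out MCKO library 2 (0.0974) or control library 1 (0.0784). The ratio of Npr3 to Nfatc1 was 2.21, 1.92 and 2.34 in the control libraries and 1.07, 1.003 and 1.02 in MCKO (exact two-sided permutation p = 0.1, the smallest possible).

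Of 12 genes for surface and secreted proteins, 9 rose, none fell and 3 did not pass the test. Cd93, a lectin-like receptor of endothelium (chromosome 2, 148436640 to 148443563, minus strand, on GRCm38), had the smallest p of the 35. It was at 139, 124 and 142 CPM in control and 281, 272 and 260.5 CPM in MCKO. Its groups were well apart, with a log2 fold change of 1.07 (SE 0.055, edgeR adjusted p = 4.04e-07). Mmrn2, an extracellular protein that binds CD93 and CLEC14A, had overlapping groups and did not pass the test (log2 fold change 0.09, SE 0.048). The ratio of Cd93 to Mmrn2 was 3.62, 3.16 and 3.67 in control and 7.29, 6.72 and 6.58 in MCKO (exact two-sided permutation p = 0.1, the smallest possible). Clec14a, a receptor of the same family as Cd93, was at a log2 fold change of 0.23 (SE 0.067, edgeR adjusted p = 0.0169), a call that was lost on 5 alternatives. Among them were DESeq2 (adjusted p = 0.0751), scaling by library totals (0.0572) and leaving out MCKO library 3 (0.0623) or control library 3 (0.0511).

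Esm1 is a secreted proteoglycan, endocan, known as a marker of sprouting tip cells, and it stood near the limit of detection in control. Its counts were 5, 0 and 1 in control and 117, 81 and 72 in MCKO, which is 0.185, 0 and 0.0311 CPM against 3.42, 3.15 and 3.02 CPM. One control library held none of its reads, and the lowest MCKO library held 72. Summed over libraries, 6 counts against 270 give a ratio of CPM of 42.1, with a 95% counting interval of 19.1 to 116 that covers counting error only. The edgeR adjusted p was 8.47e-06. Esm1 lies on chromosome 13, 113209659 to 113218098, plus strand, on GRCm38. Its span overlaps that of Gzmk on the opposite strand, without shared exon bases.

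Myct1, a membrane protein of endothelium, rose from 2.85, 3.27 and 2.58 CPM in control to 9.75, 10.2 and 11.5 CPM in MCKO. The groups were far apart, at a log2 fold change of 1.93 (SE 0.13, edgeR adjusted p = 1.84e-06). It lies on chromosome 10, 5593775 to 5606904, plus strand, on GRCm38. Esm1 and Myct1 showed the largest and the third largest fitted rises of the 35, so the 250 bases before the start of each are shown, read 5′ to 3′ on the plus strand from RefSeq (GRCm38.p6), at chr13:113209409-113209658 for Esm1 and chr10:5593478-5593727 for Myct1. Capitals mark the GATA motif AGATAA. Stab2 had the second largest fitted rise. The 250 bases before its start, and before those of Cldn5, Npr3 and Gata2, held none of the motifs searched here.
Esm1: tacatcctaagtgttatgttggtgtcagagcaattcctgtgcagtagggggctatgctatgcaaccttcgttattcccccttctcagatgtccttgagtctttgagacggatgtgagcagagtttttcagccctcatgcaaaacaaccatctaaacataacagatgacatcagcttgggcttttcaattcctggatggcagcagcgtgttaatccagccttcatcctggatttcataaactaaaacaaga
Myct1: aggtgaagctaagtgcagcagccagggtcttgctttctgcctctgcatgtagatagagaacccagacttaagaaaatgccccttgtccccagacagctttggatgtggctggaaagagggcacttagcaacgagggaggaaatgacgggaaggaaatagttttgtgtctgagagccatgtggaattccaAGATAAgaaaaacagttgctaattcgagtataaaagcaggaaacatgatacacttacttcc
Promoter windows running from 250 bases before to 50 after a start were found for 21 of the 35 genes, as 27 windows, and were searched on both strands. CCGGAAG, an exact form of the ETS motif, was in none of the 27, and in 8.86% of all 32851 windows. Other forms of this motif were not searched, so its absence does not show that these windows lack ETS sites. AGATAA was in 11.1% of the 27 windows and 11.2% of all, the forkhead motif GTAAACA in 3.70% and 3.65%, and the core ACGTG of the hypoxia-inducible factor site in 11.1% and 19.6%. A match is a description of letters and not a binding site.

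Robo4, a roundabout receptor of endothelium, was at 2.97, 3.17 and 3.39 CPM in control and at 7.36, 7.43 and 7.45 CPM in MCKO. Its MCKO libraries were nearly level with each other and all above control, at a log2 fold change of 1.28 (SE 0.11, edgeR adjusted p = 8.52e-06). Egfl7, a secreted factor of vessel lining cells, was at 73.7, 77.2 and 65.6 CPM in control and at 116, 121.5 and 124 CPM in MCKO. It did not overlap between groups and changed by 0.80 (SE 0.065, edgeR adjusted p = 7.17e-06). Emcn, the sialomucin endomucin, rose by a log2 fold change of 0.65 (SE 0.065), Cd34, another sialomucin, by 0.34 (SE 0.053), and Ecscr, a small surface protein that regulates endothelial migration, by 0.28 (SE 0.056).

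Eng and Plvap were among the most abundant of the 35 and did not pass the test. Eng, the TGF-beta co-receptor endoglin, was at 172 to 211.5 CPM in control and 196 to 209 CPM in MCKO (log2 fold change 0.16, SE 0.073). Plvap, which forms the diaphragms of endothelial caveolae and fenestrae, was at 92.0 to 118 CPM in control and 90.8 to 101 CPM in MCKO (log2 fold change -0.07, SE 0.091). For both, the control libraries spanned the values of MCKO or nearly so. Both have GC-rich transcripts, 57.4% and 60.6%, and with the GC correction Plvap was lower at a log2 fold change of -0.30 (edgeR adjusted p = 5.04e-06), while Eng was at 0.05 (adjusted p = 0.196). Plvap also fell without control library 3 (-0.16, adjusted p = 0.0404) and Eng rose without control library 2 (0.24, adjusted p = 0.00325).

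**Figure D2:**
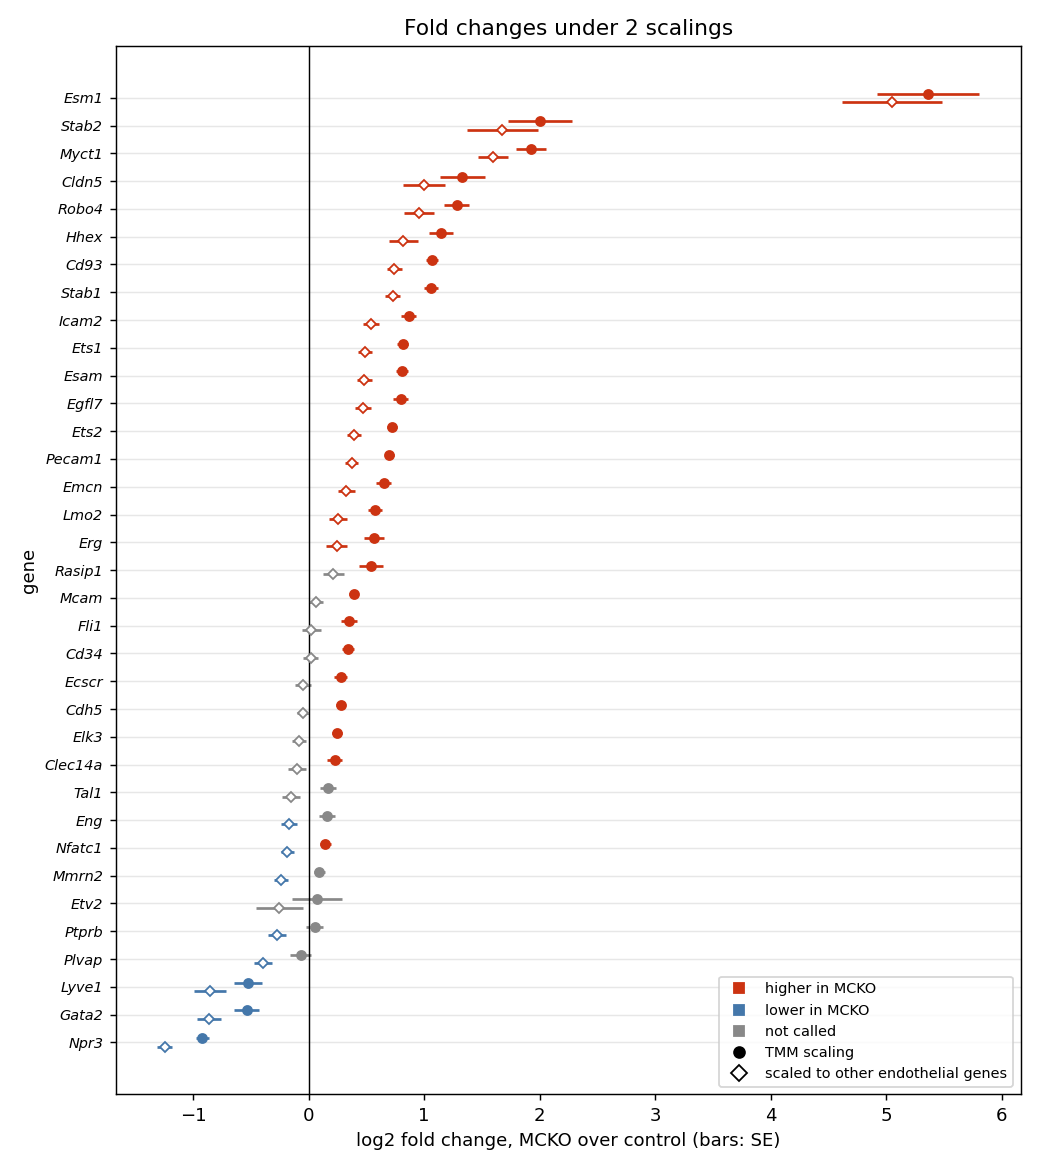
Log2 fold change of MCKO over control for each of the 35 genes under both scalings, ordered by the value from the main (TMM) scaling. Circles are TMM scaling, open diamonds are scaled to the other endothelial genes, and bars are the standard error of the edgeR fit. Red is higher, blue lower and grey not called. By TMM scaling, junction, surface and ETS genes lie at or above 0 apart from Plvap at -0.07. On that scale 1 gene fell in each of the endocardial group, the scavenger and hyaluronan receptors, and the other regulators.

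Of the 6 ETS factors, 5 rose. Ets1, which acts in endothelium and other cells, was at 78.8, 73.7 and 78.9 CPM in control and 132, 127 and 131 CPM in MCKO, and the groups were well apart (log2 fold change 0.81, SE 0.044, edgeR adjusted p = 5.66e-07). Ets2, its close relative, was at 74.1, 70.2 and 70.4 CPM in control and 111.5, 111 and 117 CPM in MCKO, again without overlap (0.72, SE 0.045, edgeR adjusted p = 1.34e-06). Neither is limited to endothelium. Erg and Fli1, factors of endothelial identity that also act in blood, rose by a log2 fold change of 0.57 (SE 0.087) and 0.35 (SE 0.069), and Elk3, a repressor of the family, by 0.25 (SE 0.045). Etv2, the early factor that starts the endothelial and blood programme, was low in all libraries, at 1.93 to 3.34 CPM in control and 2.37 to 2.97 CPM in MCKO. Its groups overlapped, and its log2 fold change of 0.07 (SE 0.21) had the widest error among the ETS factors.

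Among the other transcription regulators, 2 rose, 1 fell and 1 did not pass the test. Gata2 was at 16.4, 15.6 and 12.9 CPM in control and 9.64, 9.29 and 10.7 CPM in MCKO, a fall without overlap (log2 fold change -0.54, SE 0.11, edgeR adjusted p = 0.00222). Lmo2, which bridges Tal1 and GATA factors, rose by 0.58 (SE 0.061), and Hhex, a homeobox factor of blood and endothelial progenitors and of foregut endoderm, by 1.15 (SE 0.11). Tal1 was at 0.17 (SE 0.070, edgeR adjusted p = 0.0597) with overlapping groups, and it passed without control library 3 (0.22, adjusted p = 0.0167) and with the GC correction (0.17, adjusted p = 0.0447). Of these 3 genes, whose proteins can share a complex, Lmo2 rose, Gata2 fell and Tal1 did not pass the test.

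Of 3 genes grouped here as scavenger and hyaluronan receptors, Stab1 and Stab2 rose and Lyve1 fell. Stab1, a receptor of sinusoidal endothelium and some macrophages, was at 100.1, 114 and 96.6 CPM in control and at 203, 209 and 206 CPM in MCKO. Its groups were far apart (log2 fold change 1.06, SE 0.063, edgeR adjusted p = 9.53e-07). Stab2, its relative, was at 0.371, 0.364 and 0.218 CPM in control and at 1.11, 1.21 and 1.30 CPM in MCKO, a log2 fold change of 2.003 (SE 0.28) resting on 7 to 10 counts per control library. Lyve1, a hyaluronan receptor of lymphatic endothelium and some macrophages, was at 5.003, 5.25 and 4.60 CPM in control and 3.39, 3.15 and 3.31 CPM in MCKO. It fell without overlap (log2 fold change -0.53, SE 0.12, edgeR adjusted p = 0.0043). The ratio of Stab1 to Lyve1 was 20.01, 21.7 and 21.0 in control and 60.0, 66.4 and 62.3 in MCKO (exact two-sided permutation p = 0.1, the smallest possible).

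Levels between genes were compared as counts per kilobase of the longest transcript, scaled to the same sum in each library as CPM. On this scale Eng was the highest of the 35 in control, at 139 ± 12.4 (SD, n = 3), followed by Plvap at 132 ± 14.6, Cdh5 at 112 ± 0.889, Egfl7 at 96.2 ± 6.82 and Mcam at 95.4 ± 2.004. Eng and Plvap differed by less than their SD, as did Egfl7 and Mcam. In MCKO, Egfl7 was at 164 ± 4.09, Eng at 151 ± 4.37, Cdh5 at 133 ± 6.21 and Plvap at 123 ± 5.49. The order at the top depends on the length used. With the summed exon union of each gene, Plvap was first in control at 168 ± 18.8, then Eng at 149 ± 13.5, and Egfl7 was at rank 6, at 63.9 ± 4.62. On that length Eng was first in MCKO at 165 ± 4.74, with Cdh5 at 163 ± 7.65 within its SD, and Egfl7 was again at rank 6, at 110 ± 2.72. Npr3 went from rank 8 in control, at 60.6 ± 4.92, to rank 20, at 31.3 ± 1.15, and from rank 7 to 21 with the exon union. The lowest in control were Esm1, at 0.0860 ± 0.118, and Stab2, at 0.0958 ± 0.0254. The level per length summed over the 35 was 1392 ± 26.8 in control and 1854 ± 21.5 in MCKO.

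**Figure D3:**
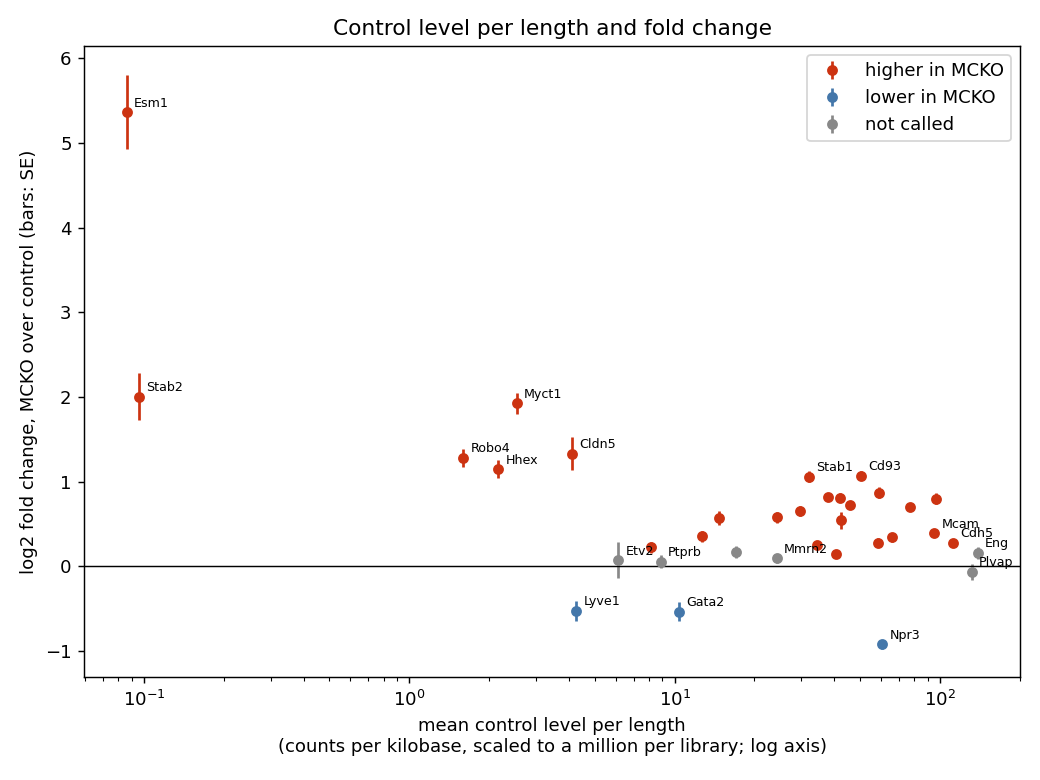
Mean control level per length (counts per kilobase, scaled as in the text; log axis) against the log2 fold change of MCKO over control for the 35 genes, 1 point per gene with bars for the standard error; genes away from the main cluster are named, and Esm1 is drawn at its fitted value, which rests on 6 control counts. Esm1 and Stab2, at the far left, entered the test only through MCKO, and Npr3 is the most abundant of the 3 that fell.

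Esm1 and Stab2 apart, which entered the test only through MCKO, 6 of the 35 genes averaged under 5 CPM in control. Of these, Myct1, Cldn5, Robo4 and Hhex rose at least 2-fold, while Lyve1 fell and Etv2 did not pass the test. Of the 8 genes at or over 100 CPM, 5 rose, with log2 fold changes from -0.92 for Npr3 to 1.07 for Cd93. The plot of level against fold change shows both. Spearman's rho between control level per length and log2 fold change was -0.28 over the 35 genes and -0.15 over 14607 tested genes. Both are descriptions over genes that share the same 6 libraries and include Esm1 and Stab2. The control level is also the denominator of the fold change, which by itself can make rho negative. No conclusion is drawn from either value.

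A list of 33 other endothelial genes gave a second reading of the same tissue. Of these, 21 rose, 6 fell and 6 did not pass the test, with a median log2 fold change of 0.34 against 0.54 for the 35. Adgrl4, an adhesion G protein-coupled receptor, rose by 1.47 (SE 0.066), Tmem204, a claudin-like membrane protein, by 1.88 (SE 0.093), and Vwf, von Willebrand factor, by 1.03 (SE 0.052). The 6 that fell were Bmx, Gpr182, Nostrin, Tek, Heg1 and Nos3. Endothelial genes outside the 35 thus also moved in both directions.

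The 35 genes were then read relative to those 33, by scaling the libraries so that the median log ratio of the 33 was equal. On this scale 17 of the 35 were higher, 8 lower and 10 not called, with a median of 0.21. Over all tested genes, 13.4% were higher, 55.6% were lower and the median was -0.33, since this scaling lowers every log2 fold change by about that amount. The 33 genes themselves also spread on this scale, with 12 higher, such as Tmem204 at 1.56 and Apold1 at 1.37, 11 lower, such as Bmx at -1.68 and Gpr182 at -1.28, and 10 not called. The 17 that were higher were also higher by the first scaling, with Esm1, Stab2, Myct1, Cldn5, Robo4, Hhex, Cd93 and Stab1 at the top. Of these, Esm1 and Stab2 entered the test only through MCKO. Cdh5 (-0.05), Fli1 (0.02), Cd34 (0.02), Mcam (0.06), Ecscr, Elk3, Clec14a and Rasip1 rose by the first scaling and were not called relative to other endothelial genes. Nfatc1, whose rise by the first scaling was smaller than this shift, was lower on this one (-0.18, SE 0.059, edgeR adjusted p = 0.0120). Eng, Plvap, Mmrn2 and Ptprb, not called by the first scaling, were lower on this one, with log2 fold changes from -0.40 for Plvap to -0.17 for Eng. Npr3 (-1.25, SE 0.066), Gata2 (-0.86, SE 0.11) and Lyve1 (-0.85, SE 0.14) were lower on both, and Tal1 and Etv2 were called on neither. On this scale 4 of 8 junction genes and 6 of 12 surface and secreted genes were higher.

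Markers of other cell types moved in the same libraries, and their part in the changes of the 35 was not tested. All 12 primitive red cell genes rose, with a median of 1.07 and a summed level of 3122 to 3417 CPM in control and 6532 to 6944 CPM in MCKO. Of 8 megakaryocyte genes 6 rose, with a median of 0.61 and sums of 31.8 to 38.0 CPM and 49.7 to 52.9 CPM. Tal1, Lmo2, Gata2, Erg and Fli1 are also expressed in blood lineages. Of them, Lmo2, Erg and Fli1 rose, Gata2 fell and Tal1 did not pass the test. Macrophage and leukocyte genes were near the floor: 5 of 11 could be tested, none rose and Csf1r and Mrc1 fell, the list summed to 9.14 to 10.6 CPM in control and 6.26 to 7.54 CPM in MCKO, and C1qa was at 0 in all libraries. Stab1 rose and Lyve1 fell in the libraries where this macrophage sum was lower.

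**Figure D4:**
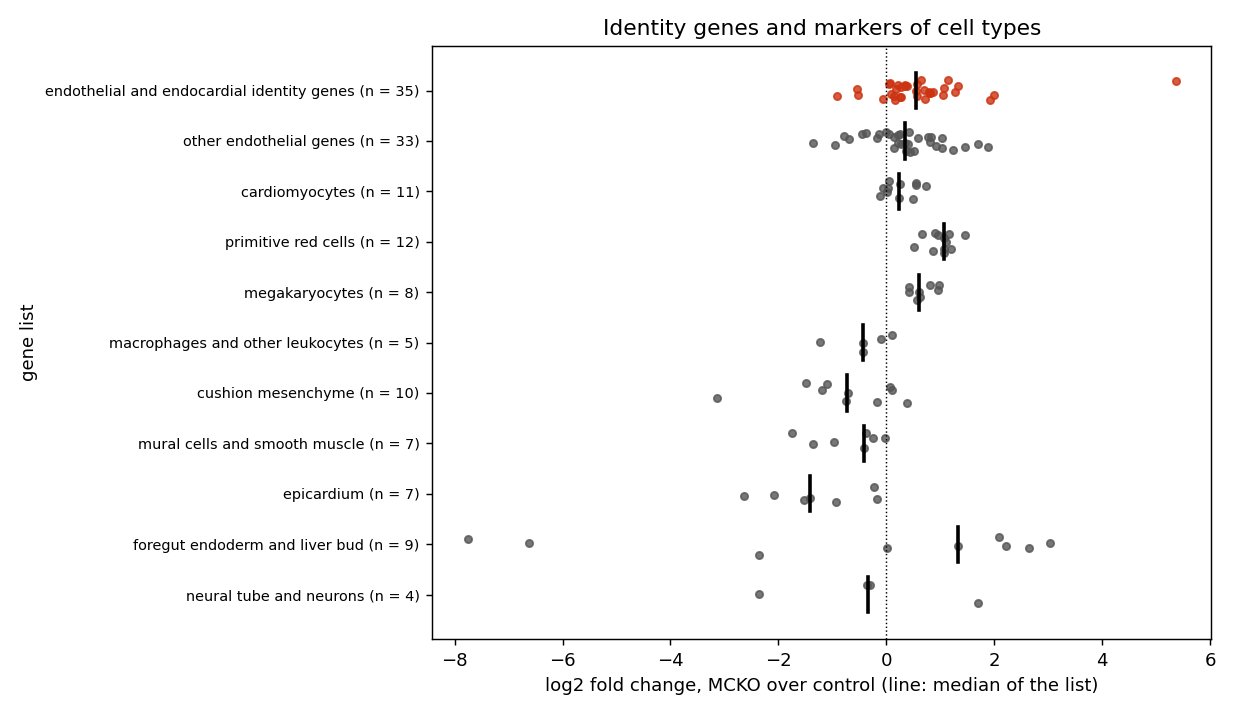
Log2 fold change of MCKO over control for the tested genes of each list, 1 point per gene with small vertical offsets, and a black line at the list's median. The 35 identity genes (red) have a median of 0.54, red cell genes 1.07, epicardial genes -1.41 and cushion mesenchyme genes -0.73.

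Marker lists for cushion mesenchyme, mural cells, epicardium, foregut, liver and neural tissue showed other patterns, drawn in the plot of gene lists. In bulk RNA these lists do not show which cells made the transcripts. Of 10 cushion mesenchyme genes 1 rose and 6 fell, with a median of -0.73, and the one that rose was Vcan, the matrix proteoglycan versican, at 1390 to 1556 CPM in control and 1748 to 1911 CPM in MCKO. Without Vcan the list summed to 349 to 372 CPM in control and 184 to 189 CPM in MCKO, and with it to 1762 to 1905 and 1935 to 2095 CPM. Of 7 tested genes of mural cells and smooth muscle 6 fell, with a median of -0.42, and of 7 epicardial genes 6 fell, with a median of -1.41. Among 9 tested genes of foregut endoderm and liver bud, the epithelial and foregut genes Epcam, Foxa2, Foxa1, Cdh1 and Sox2 rose. Their sum, taken over genes picked because they rose, was 2.75 to 3.34 CPM in control and 12.6 to 13.1 CPM in MCKO. The foregut genes Foxa3 and Nkx2-1 did not pass the filter on low counts. Foxa3 averaged 0.251 CPM in control and 0.393 CPM in MCKO, and Nkx2-1 0.450 and 0.357 CPM. The liver genes Afp, Ttr and Alb fell, from a sum of 12.6 to 14.5 CPM to 0.311 to 0.380 CPM, and Prox1, at 69.1 to 83.1 and 68.5 to 77.3 CPM, did not pass the test. Hhex, which is also made in foregut endoderm, rose in the libraries where Epcam, Foxa2, Foxa1, Cdh1 and Sox2 rose and Afp, Ttr and Alb fell. The part of foregut or liver cells in its level was not tested. Of 4 tested neural genes 1 rose, Pax6 (log2 fold change 1.71), and 2 fell, Tubb3 (-2.35) and Gata3 (-0.31, edgeR adjusted p = 0.0492). The neural list summed to 28.3 to 34.5 CPM in control and 14.1 to 15.5 CPM in MCKO. Tubb3 made up most of the control sum, at a mean of 23.4 CPM in control and 4.39 CPM in MCKO.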

How the data were processed

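RNA was extracted from hearts with the Aurum kit and sequenced from stranded TruSeq mRNA libraries, per the labels' protocols. The authors deposited estimated counts for each Ensembl gene ID, held as whole numbers. The submitters' processing notes name kallisto and mm10. No source used here gives the version, transcript set or use of strand, so reads of overlapping genes may be assigned to either. Genes were named from GENCODE M21, and no gene of the 35 had a transcript copy at 95% identity or more over 80% of its length (minimap2 2.31).

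Counts were tested with edgeR 4.0.16 in R 4.3.3: filterByExpr (minimum count 10), TMM scaling, a robust quasi-likelihood fit on group, and Benjamini-Hochberg adjustment over all tested genes. CPM uses library totals. The relative comparison sets scale factors from 33 other endothelial genes, after adding 0.5 to counts. The fit and the relative scaling were tested on simulated counts with few changed genes, the same spread for every gene and no GC trend. The GC correction and the permutation tests were not part of that check. The 35 genes and the other lists were chosen with earlier results of these data known. The genes given by library are the 12 with the smallest p and all that fell, and others were added after their values were seen. Replicate libraries differed by more than sampling noise (chi-square per gene 3.58 to 15.4), so all 6 were kept.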

Additional observations from a re-analysis of the deposited data

How the results depend on the processing

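The median log2 fold change of the 35 genes, 0.54, is the value of Rasip1 in most fits and shifted with some settings. It was 0.40 with the correction for GC content, which was chosen after seeing the data, 0.47 when genes needed 50 counts in 3 libraries, which leaves fewer genes tested, and 0.48 with scaling by library totals only. It ran from 0.44 to 0.56 when each library was left out in turn, with the lowest value without control library 3, so of these settings only the GC correction lay outside that range. The count that rose stayed between 24 and 27 of the 35, the count that fell between 3 and 4, and the count of all genes called between 6664 and 9320. Of 454 pairs of a gene and an alternative, 438 kept their direction and side of the threshold, counting as kept those not called both times, 10 lost the call, 6 gained it and none of the called values changed sign, with 29 of the 35 on the same side throughout. The 6 exceptions were Nfatc1, Clec14a, Rasip1, Eng, Plvap and Tal1.

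Same-numbered libraries did not deviate together, with correlations of their deviations of -0.005, 0.022 and -0.13, so the numbers were not taken to pair the samples. With the replicate block 7765 genes were called in all, 25 of the 35 rose and 3 fell, with Nfatc1 (adjusted p = 0.0538) and Clec14a (0.0523) lost and Tal1 (0.0486) gained. Depth limits Esm1 and Stab2 most, at 0 to 10 counts per control library, where 3 counts are 0.0933 to 0.156 CPM.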
